A study of Mus musculus with 20 samples.

Results

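The Nanog-Dppa3 cluster is a run of 5 genes on mouse chromosome 6, Apobec1, Gdf3, Dppa3, Nanog and Slc2a3, that spans 225 kb. The 5 genes were taken by symbol from the deposited RNA table, where each has 1 row among 46939 genes, and all 5 were among the 12035 genes tested, whose FPKM averaged 1 or more over the 4 libraries. FPKM is the number of fragments per kilobase of a transcript relative to the depth of the library. The set was chosen with the RNA difference between the genotypes already known, led by that of Dppa3, so the members' RNA values are given as a description, with no test. CTCF peaks were taken from the cluster and 50 kb on either side, a window of 325 kb that held 39 of 54729 regions.

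The libraries came from mouse embryonic stem cells of a 129 background, wild-type (WT) or TDG KO, which lack thymine DNA glycosylase. This enzyme excises oxidised forms of methylcytosine made by TET proteins. Cells of both genotypes grew on mitotically arrested embryonic fibroblasts in serum with LIF, a cytokine that keeps stem cells undifferentiated, and the fibroblasts were then depleted by plating. RNA-seq of polyadenylated RNA and immunoprecipitation of the DNA-binding protein CTCF each had 2 libraries per genotype. Whether replicates were separate cultures is not in the labels, and p-values therefore reflect the spread among these 4 libraries alone, possibly a technical one. Each genotype may be 1 line, so a difference between the genotypes cannot be told apart from a difference between the lines.

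Nanog is a homeodomain protein that sustains self-renewal of pluripotent cells together with Oct4 and Sox2. Dppa3, also called Stella or PGC7, is abundant in oocytes, early embryos and germ cells, protects methylated cytosines from oxidation after fertilisation and keeps the methylation factor Uhrf1 out of the nucleus. Gdf3 is a ligand of the TGF-beta family, Apobec1 a cytidine deaminase that edits RNA, and Slc2a3 the glucose transporter GLUT3. CTCF binds DNA through zinc fingers, anchors chromatin loops and is sensitive to cytosine methylation at some of its sites.

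Tdg RNA measured 28.1 and 30.4 FPKM in WT, against 5.50 and 4.74 FPKM in TDG KO (log2 difference -2.31, SE 0.0866, limma adjusted p = 9.21e-06). The stem cell markers Pou5f1 (996 to 1572 FPKM) and Zfp42 (433 to 522 FPKM) were abundant in all 4 libraries. Of 17 tested markers of feeder fibroblasts 11 fell, 0 rose and 6 were not called, where 29.5% of all tested genes fell and 24.4% rose, and the median log2 difference was -0.62 (all genes -0.04). The summed level of the 20 markers with a row was 583 and 415 FPKM in WT and 289 and 307 FPKM in TDG KO, and for all 17 tested markers the first WT replicate exceeded the second. Col3a1 (-1.23, adjusted p = 0.00856), Dcn (-1.19, 0.00367), S100a4 (-1.09, 0.00148) and Col6a3 (-0.92, 0.00156), which encode matrix proteins and a calcium-binding protein, fell most. The part of feeder RNA in the members' values was not tested. In bulk RNA, fewer cells of a type and less RNA per cell cannot be told apart.

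Of the 5 members, Nanog and Apobec1 matched an entry of the RefSeq promoter table (GRCm38.p6). Both are shown because a CTCF peak lay within 5 kb of the start, for Apobec1 in all 4 lists and for Nanog in the TDG KO lists alone. The Nanog peak was among the lower-scored ones of those lists (percentiles by score 24.6 and 6.97). The sequences run from 250 bases before to 50 after the start of the promoter entry. For Apobec1, on the minus strand, that start is chr6:122602444, inside the gene span given below, which ends at 122603024. Capitals mark ATGCAAA, the octamer-type motif of Oct4, on either strand, and in Nanog the adjoining Sox2 motif (CATTGT, any base, then ATGCAAA, read on the minus strand).
Nanog, chr6:122707239-122707538, plus strand: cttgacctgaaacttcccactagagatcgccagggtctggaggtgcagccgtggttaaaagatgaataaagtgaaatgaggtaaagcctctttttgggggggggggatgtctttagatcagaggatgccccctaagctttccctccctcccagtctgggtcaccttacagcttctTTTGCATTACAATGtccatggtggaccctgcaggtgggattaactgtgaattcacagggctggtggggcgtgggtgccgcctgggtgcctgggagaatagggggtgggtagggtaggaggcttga
Apobec1, chr6:122602395-122602694, minus strand: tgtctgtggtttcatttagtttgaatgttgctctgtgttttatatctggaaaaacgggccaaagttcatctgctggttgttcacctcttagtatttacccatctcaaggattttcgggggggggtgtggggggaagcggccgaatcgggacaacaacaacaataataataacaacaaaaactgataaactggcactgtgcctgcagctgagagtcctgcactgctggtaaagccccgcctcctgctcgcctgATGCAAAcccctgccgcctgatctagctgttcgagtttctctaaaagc
The joined motif occupied bases 176 to 189 of the Nanog sequence. It was found in 2 of 32851 promoters of the same length (0.00609%), which were the 2 entries of Nanog. ATGCAAA alone was found in 4.63% of promoters, and in Apobec1 it occupied bases 253 to 259, past the start. Nanog held 4 CpG sites, a count that 31.4% of promoters fell below, and Apobec1 held 9 (54.2% had fewer). The core of the CTCF motif, searched on both strands as CC, any 3 bases, AG, any 2 bases, then GGC, occurred in 8.61% of promoters and in neither of these sequences.

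Nanog (ENSMUSG00000012396, chr6:122707489-122714633 in mm10, of which GRCm38.p6 is a patch release) was the most abundant member. The WT libraries held 331 and 360 FPKM, and the TDG KO libraries 428 and 428 FPKM. Both TDG KO libraries lay above both WT libraries. The means were 346 ± 19.8 (SD, n = 2) and 428 ± 0.221 (SD, n = 2) FPKM, a ratio of 1.24 and a difference of 0.31 (SE 0.0702) in log2(FPKM + 1). By level Nanog stood at rank 270 of the 12035 tested genes in WT and at rank 214 in TDG KO.

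Dppa3 (ENSMUSG00000046323, chr6:122626424-122630271) went from the least abundant member to the level of Gdf3. It was at 1.83 and 1.67 FPKM in WT and at 57.8 and 61.9 FPKM in TDG KO. The 2 genotypes were far apart and the libraries of each genotype close together. The means were 1.75 ± 0.108 and 59.9 ± 2.89 FPKM (SD, n = 2 each), a ratio of 34.2 and a difference of 4.47 (SE 0.0736) in log2(FPKM + 1), a scale that understates the change of a gene this low in WT. Among all tested genes, 2 had a higher log2 difference. Its rank by level moved from 10718 to 1755. Nanog and Dppa3 are known to have near-identical retrogene copies, and how the authors' counting shared reads among such copies is not stated, so both levels are uncertain to that extent.

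Gdf3 (ENSMUSG00000030117, chr6:122605403-122610087), the ligand, was at 55.6 and 58.7 FPKM in WT and at 60.1 and 67.4 FPKM in TDG KO. The groups did not overlap, but the lower TDG KO library was close to the higher WT library. The means of 57.2 ± 2.13 and 63.8 ± 5.1 FPKM (SD, n = 2 each) differed by a ratio of 1.12, or 0.15 (SE 0.0741) in log2(FPKM + 1), the smallest difference of the 5 members.

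Apobec1 (ENSMUSG00000040613, chr6:122577792-122603024), the deaminase, was at 6.56 and 6.75 FPKM in WT and at 9.09 and 8.24 FPKM in TDG KO. Both TDG KO libraries were higher, and they were further apart than the WT libraries. The means were 6.65 ± 0.131 and 8.66 ± 0.603 FPKM (SD, n = 2 each), a ratio of 1.30 and a difference of 0.34 (SE 0.0793) in log2(FPKM + 1).

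Slc2a3 (ENSMUSG00000003153, chr6:122727809-122802363), the transporter, was at 299 and 311 FPKM in WT and at 373 and 342 FPKM in TDG KO. Its groups did not overlap either. The means were 305 ± 8.72 and 357 ± 22.5 FPKM (SD, n = 2 each), a ratio of 1.17 and a difference of 0.23 (SE 0.0724) in log2(FPKM + 1).

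**Figure D1:**
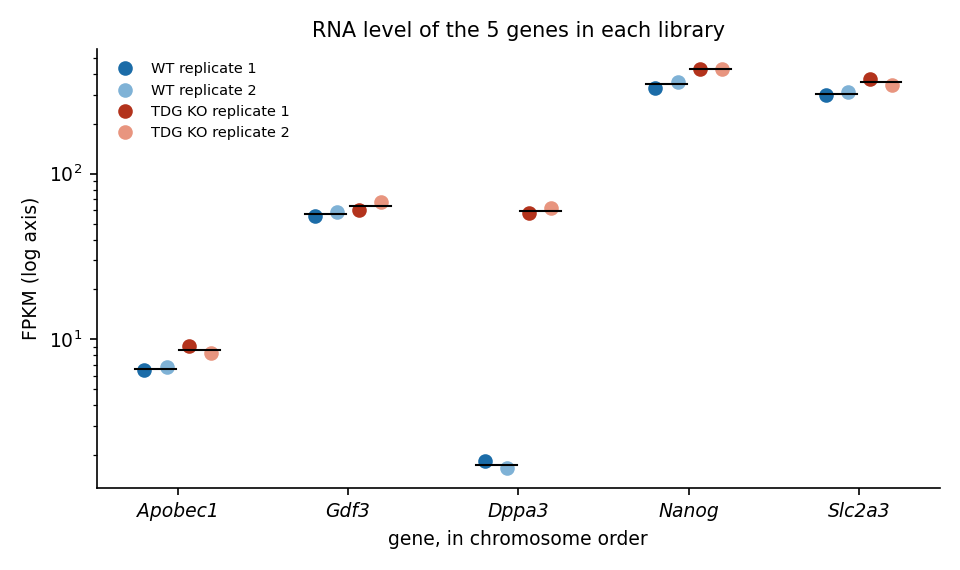
FPKM (log axis) of the 5 genes in chromosome order, 1 point per library, with lines at the mean of each genotype (n = 2). Dppa3 lies at 1.67 to 1.83 FPKM in WT and 57.8 to 61.9 FPKM in TDG KO, while the other 4 genes differ by ratios of 1.12 to 1.30.

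All 5 members were thus higher in both TDG KO libraries than in both WT libraries, which held for 35.1% of all tested genes. Since the members were chosen on this contrast, nothing is read from that count. Without WT replicate 1, the library with the highest feeder marker level, the log2 differences were 0.25 for Nanog, 4.51 for Dppa3, 0.12 for Gdf3, 0.32 for Apobec1 and 0.20 for Slc2a3.

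The order of levels in WT was Nanog, Slc2a3, Gdf3, Apobec1 and Dppa3, and no neighbours in that order overlapped between libraries. In TDG KO, Dppa3 moved past Apobec1, and its libraries overlapped those of Gdf3. The ratio of Gdf3 to Dppa3 was 30.5 and 35 in the WT libraries and 1.04 and 1.09 in the TDG KO libraries. Nanog to Slc2a3 stayed between 1.11 and 1.25 in the 4 libraries. Dppa3 made up 0.244% of the summed FPKM of the 5 members in WT and 6.52% in TDG KO.

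The genes whose 4-library profiles lay nearest to Dppa3, by Euclidean distance between centred log2(FPKM + 1) values, were Rhox5 (distance 0.271), 1700013H16Rik (0.352) and Xlr3a (0.353), all on the X chromosome. Rhox5, a homeobox gene of the reproductive tract and placenta, was at 23.1 and 27.6 FPKM in WT and at 513 and 541 FPKM in TDG KO. The nearest to Nanog were 3830406C13Rik (0.023), Relb (0.0245) and Reep4 (0.0258). Gdf3 was nearest to Cycs (0.0106), Msc (0.0107) and Vps29 (0.0109), Apobec1 to Papolg (0.00803), Bicd2 (0.0142) and Nkiras1 (0.0301), and Slc2a3 to Slc9b1 (0.00652), Ptpn7 (0.00847) and Ppp1r13b (0.0205). These distances rest on 4 libraries. For Dppa3 they mostly follow the log2 difference between the genotypes, with which the set was chosen. That difference was 4.47 for Dppa3, and 4.33, 4.14 and 4.64 for its nearest genes in the order given. No likeness beyond it is read from them.

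Genes around the cluster were compared next, to place the members' differences in their chromosomal setting. In the whole fit, limma called 6496 of 12035 genes (54.0%), 2942 higher (24.4%) and 3554 lower (29.5%) in TDG KO. Upper-quartile scaling gave more higher than lower calls (3236 and 3167), as did leaving out the filter on FPKM (3345 and 2886). Of 36 RefSeq genes within 500 kb of the cluster, 28 had a row and 6 were tested, and 5 of these rose and 0 fell. Mfap5, a microfibril protein of connective tissue, rose from 4.74 and 3.55 to 15 and 15.5 FPKM (log2 difference 1.67, adjusted p = 9.43e-05). Rimklb, a glutamate ligase, rose from 20.7 and 27 to 57 and 52.1 FPKM (1.17, 0.000406). Mfap5 thus moved against the feeder list.

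The other tested neighbours differed less. Necap1, an endocytosis factor, rose from 37.4 and 39 to 57.9 and 58.6 FPKM (log2 difference 0.60, adjusted p = 0.000358). Phc1, a Polycomb subunit, rose from 147 and 150 to 211 and 208 FPKM (0.49, 0.000738). M6pr, the mannose 6-phosphate receptor, rose from 95.3 and 100 to 133 and 134 FPKM (0.45, 0.0012). Foxj2, a forkhead factor next to Slc2a3, was at 1.51 and 1.49 FPKM in WT and 1.91 and 1.84 FPKM in TDG KO and was not called (0.21, 0.112), except by limma without trend (adjusted p = 0.0432).

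**Figure D2:**
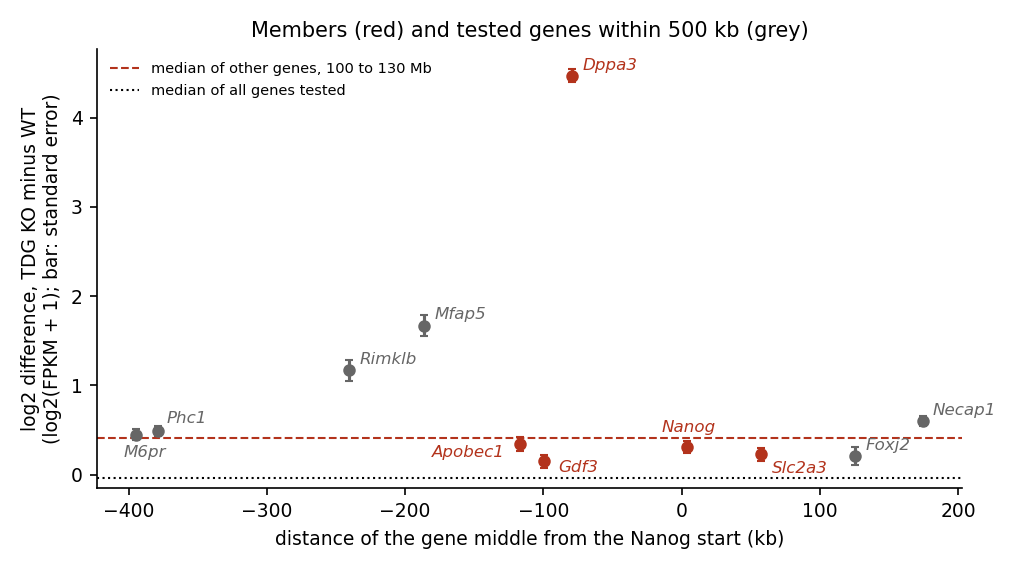
Log2 difference, TDG KO minus WT, of the 5 members (red) and the 6 tested genes within 500 kb (grey) by distance of the gene middle from the Nanog start in kb, with standard errors. The dashed line is the median of the other genes from 100 to 130 Mb (0.41), the dotted line that of all tested genes (-0.04), and Dppa3, Mfap5 and Rimklb lie well above both.

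The higher values extended far beyond the cluster. From 100 to 130 Mb of chromosome 6, an interval set after the values had been seen and given without a test, 151 tested genes other than the members had a median log2 difference of 0.41, with 103 called higher (68.2%) and 10 called lower (6.62%). In this interval 76.2% of genes were higher in both TDG KO libraries than in both WT libraries. The 406 tested genes elsewhere on the chromosome had a median of -0.09, with 71 higher and 137 lower. In tiles of 5 Mb, the 6 tiles of the interval ran from -0.36, in the tile at its lower end, to 0.55. The 21 tiles elsewhere with at least 5 tested genes ran from -0.35 to 0.08, and a tile from 60 to 65 Mb, with 1 tested gene, was at 1.16.

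Against the interval's median, 4 members were not high. With the median subtracted, Nanog was at -0.10, Gdf3 at -0.26, Apobec1 at -0.08 and Slc2a3 at -0.19, and 92, 113, 85 and 103 of the 151 genes had a higher log2 difference than each in turn. Dppa3 was 4.05 above the median, and 0 of the 151 genes were higher. The difference of Nanog, Gdf3, Apobec1 and Slc2a3 was therefore no larger than that of most genes in the interval, and that of Dppa3 was. What raised the interval was not tested. A difference between the lines in the number of copies of this stretch was not tested either, and cannot be told apart here from other differences between them.

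**Figure D3:**
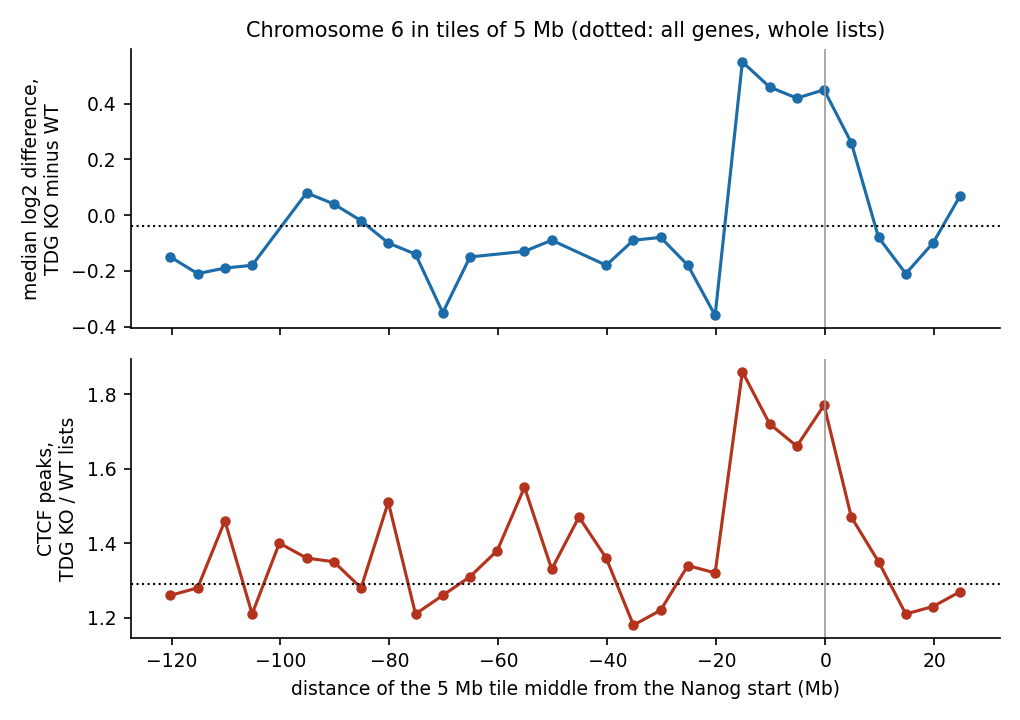
Chromosome 6 in 5 Mb tiles by distance of the tile middle from the Nanog start in Mb: above, median log2 difference of the tested genes (tiles with at least 5), below, CTCF peaks of the TDG KO lists over those of the WT lists. Dotted lines are the median of all genes (-0.04) and the ratio of the whole lists (1.29), and tiles next to Nanog stand above both lines in both panels.

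CTCF lists were deposited per library, with a score per peak that is the authors' own. The window of 325 kb held 17 and 18 peaks in the WT lists and 37 and 30 peaks in the TDG KO lists, a ratio of 1.91. The whole lists, of 38303, 37099, 48514 and 48833 peaks, had a ratio of 1.29, and the interval from 100 to 130 Mb a ratio of 1.63. Peaks of the window covered 4.64 and 5.12 kb in the WT lists, against 14.2 and 9.61 kb in the TDG KO lists. Over the interval, peaks covered 115 and 133 kb in the WT lists, against 316 and 226 kb in the TDG KO lists. TDG KO replicate 1 had the widest peaks in the window, with a median width of 370 bp against 262 to 281 bp in the other 3 lists. Its peaks were also the widest in the interval (350 bp against 256 to 289 bp) and in the whole lists (296 bp against 259 to 278 bp).

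Peaks that overlapped by at least 1 bp were merged into regions. Of the 39 regions, 16 were in all 4 lists (41%, against 59.8% of all regions), 9 were TDG KO-only, in both lists of that genotype and absent from the WT lists (23.1%, against 10.8%), 3 were in both TDG KO lists and 1 WT list, and 11 were in 1 TDG KO list alone. WT-only regions numbered 0. In the rest of the interval from 100 to 130 Mb, 19.7% of 822 regions were in both TDG KO lists alone, and elsewhere on the chromosome 9.79%. The window's share was near that of the interval. With the 37099 best peaks of each list, 5 of 28 regions in the window (17.9%) were TDG KO-only, against 2.81% of all regions. The share of the interval at that setting was not computed, so the window is not set apart from the interval by it. Without TDG KO replicate 2 the TDG KO-only regions numbered 18, and without TDG KO replicate 1, 11. With 2 lists against 2, an exact permutation test cannot give a p below 0.33, so no test was made.

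Near Nanog, TDG KO-only regions lay at chr6:122708879-122709159, within the gene (scores 15.9 and 8.84), and at chr6:122699752-122700013, 7.48 kb away (30.9 and 19.5). The peak nearest to the start in the WT lists was 12.5 kb off, and in the TDG KO lists 1.39 and 1.47 kb. Those TDG KO peaks, of the region within the gene, stood at percentiles by score of 24.6 and 6.97 in their lists. With the 37099 best peaks of each list, that region was not kept in both TDG KO lists. That WT peak belonged to the shared region chr6:122719892-122720385 between Nanog and Slc2a3, with scores of 81.9, 77.6, 137 and 93.9 in the order WT replicate 1, WT replicate 2, TDG KO replicate 1, TDG KO replicate 2. The promoter sequence printed for Nanog held 0 peaks in each list.

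Around Dppa3, the gene body held a peak in TDG KO replicate 1 alone (chr6:122629539-122629696, score 7.3). TDG KO-only regions lay past its higher-coordinate end at chr6:122632717-122633104, 2.45 kb away (scores 24.7 and 10.9), chr6:122636664-122637103 (14 and 12.9) and chr6:122639801-122639977 (14.6 and 15.5). The region between the first and second of these, chr6:122633418-122634052, 3.15 kb from the gene, was in all 4 lists, with scores of 19.7, 12, 75.6 and 50.2. All 4 regions lay within 10 kb of that end of the gene. With the 37099 best peaks of each list, none of the TDG KO-only ones was kept in both TDG KO lists.

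Gdf3 carried a shared region over its lower-coordinate end, chr6:122605161-122605854, with scores of 22.4, 24.5, 85.6 and 71.4. Apobec1 held a TDG KO-only region, chr6:122595662-122595958 (19 and 17.1). The peaks nearest to the start of its promoter entry were 2.72 to 3.11 kb away. Its promoter sequence also held 0 peaks in each list. Slc2a3, the longest member, held 3 and 4 peaks in the WT lists and 7 and 6 in the TDG KO lists, among them the TDG KO-only region chr6:122797946-122798199. Another TDG KO-only region lay at chr6:122837048-122837342, within Foxj2. The strongest region of the window, chr6:122669064-122669797 between Dppa3 and Nanog, had scores of 98.9, 159, 225 and 127.

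**Figure D4:**
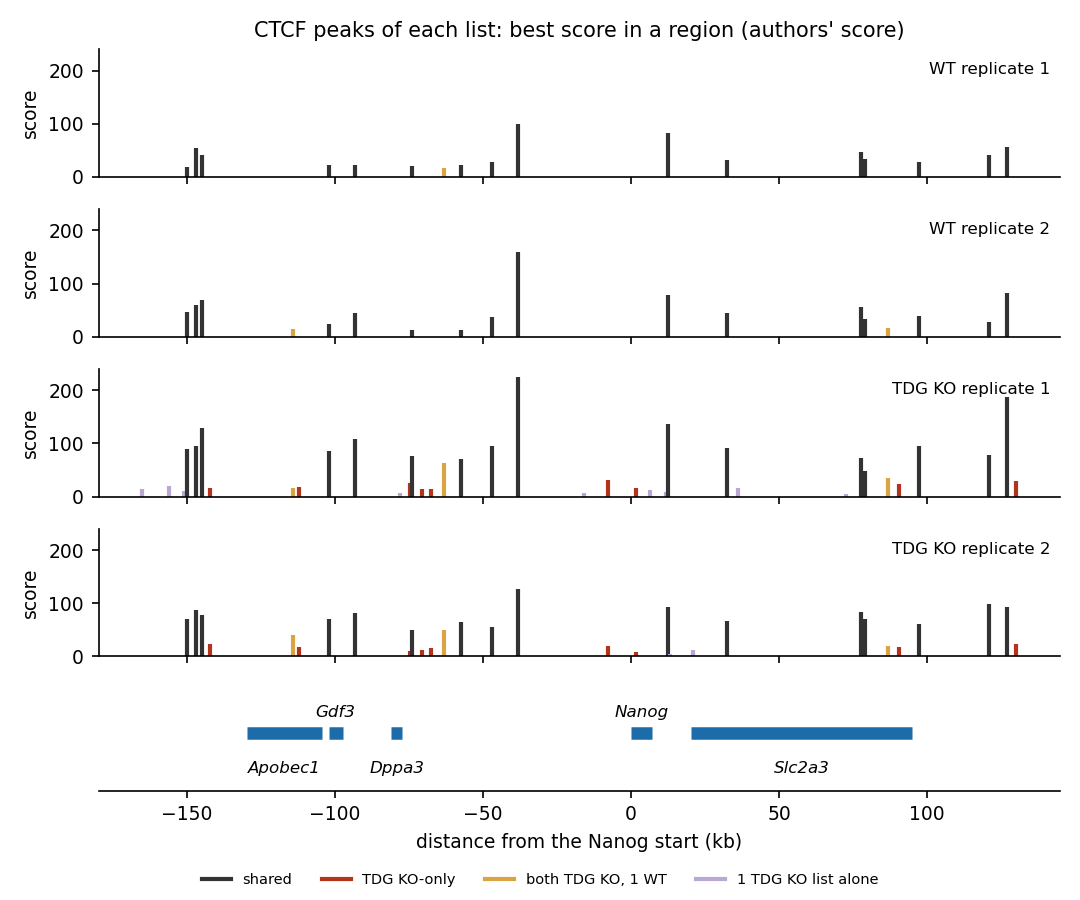
CTCF peaks of the 4 lists by distance from the Nanog start in kb, each line as high as the best score of a region in that list, coloured by the lists that hold it, with gene bodies below. The 9 TDG KO-only regions (red) are low, with scores up to 30.9, and the strongest region, at -38.1 kb, is in all 4 lists.

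Scores were compared by place, as percentiles among the 32740 regions shared by the 4 lists. The 16 shared regions of the window had median places of 48.7 and 69.7 in the WT lists, against 90.1 and 77.2 in the TDG KO lists. Both TDG KO lists placed 8 of the 16 above both WT lists, and 0 below, against 19.1% of all shared regions placed higher. In the rest of the interval from 100 to 130 Mb, 242 of 406 (59.6%) were placed higher, so the window did not stand out from it. Elsewhere on the chromosome the share was 14.7%.

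The regions 3.15 kb past Dppa3 and over Gdf3 moved far, but were not alone in this. The Dppa3 region stood at 25 and 8.09 in the WT lists, against 79.3 and 49 in the TDG KO lists, and the Gdf3 region at 30.6 and 34.4 against 86.4 and 74.3. A shared region 19.5 kb from Dppa3, chr6:122649767-122650236, moved about as far, from 31.1 and 9.89 to 74.6 and 66.7. The strongest region stayed between 97.8 and 100 in the 4 lists.

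**Figure D5:**
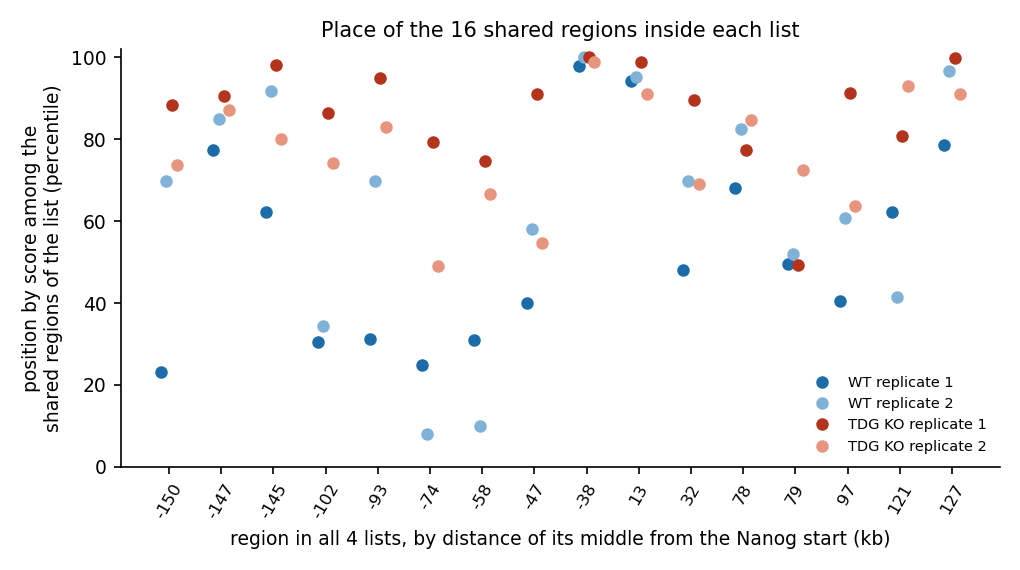
Percentile by score of the 16 shared regions among all shared regions of each list, by distance from the Nanog start in kb, 1 point per list. TDG KO points lie above WT points in 8 regions, and regions at -74 kb (3.15 kb from Dppa3) and -102 kb (Gdf3) are among the widest apart.

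Genes that work with the members lay elsewhere in the genome, none of them in the interval from 100 to 130 Mb, and their counts are set beside the 24.4% higher and 29.5% lower of all tested genes. Of 22 tested pluripotency factors, listed as partners of Nanog, 4 rose, 14 fell and 4 were not called (median log2 difference -0.37, all genes -0.04). The list is not limited to factors of the naive state, so no direction is read for that state. Tfcp2l1 (-1.16, adjusted p = 6.90e-05), Otx2 (-0.84, 0.000288), Klf4 (-0.75, 0.000185) and Foxd3 (-0.69, 0.000849), all transcription factors, fell most. Nanog, at 0.31, lay opposite to the median of this list. Against the median of the interval that holds it, Nanog was at -0.10.

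Of 14 tested Dppa genes and methylation partners of Dppa3, 4 rose, 6 fell and 4 were not called (median -0.08). The de novo methyltransferases Dnmt3a (1.44, adjusted p = 1.66e-05) and Dnmt3b (1.05, 4.77e-05) and their cofactor Dnmt3l (1.02, 8.56e-05) rose, and Tet2, a dioxygenase of methylcytosine, fell (-1.53, 0.0002). Uhrf1, which Dppa3 binds, was at 153 and 145 FPKM in WT and 132 and 135 FPKM in TDG KO and was not called.

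Of 14 tested genes of Nodal and Gdf3 signalling 4 rose, 4 fell and 6 were not called (median -0.12). The inhibitors Lefty1 (2.01, adjusted p = 6.60e-06) and Lefty2 (1.20, 9.87e-05) and the cofactor Foxh1 (0.49, 0.00084) rose, and the protease Pcsk6 fell (-0.66, 0.000285). Gdf3 itself differed by 0.15.

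Of 8 tested deaminases and Apobec1 cofactors 2 rose, 3 fell and 3 were not called (median 0.01). Apobec2 rose (0.75, adjusted p = 0.000785), as did the RNA-binding cofactor Rbm47 (0.66, 0.0385), whose TDG KO libraries lay apart at 5.38 and 2.94 FPKM. Cdadc1, a deaminase-related gene, fell (-0.88, 0.000223), as did Syncrip, an RNA-binding protein (-0.40, 0.00162). A1cf, the classical editing cofactor of Apobec1, was listed at 0 in all 4 libraries.

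Of 4 tested genes of the glucose transporter list, which includes the regulator Txnip, 2 rose and 1 fell. Slc2a1 (GLUT1) rose (0.87, adjusted p = 0.00023), as did Slc2a8 (0.50, 0.00262), Txnip fell (-0.57, 0.000857), and Slc2a5 was not called. The median was 0.39. Slc2a1 was at 92.6 and 106 FPKM in WT and 183 and 181 FPKM in TDG KO, below Slc2a3 in each library.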

How the data were processed

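The authors deposited FPKM values of each RNA library, and a table of the comparison with the authors' mean FPKM, log2 folds, test score, p-values and q-values, per the file headers. The deposited comparison table served here only to find the members and to check signs. FPKM holds no counts: absolute depth is unknown, and the steps of low values put depth at 0.858 to 0.992 of WT replicate 1. The authors deposited a CTCF peak list per library with a score. For the score's meaning, the control library, the peak threshold and strand use, the sources used here give nothing. Bowtie2 2.2.9, MACS2 2.2.1, deepTools, TopHat2 2.1.1, Cufflinks 2.2.1, Cuffdiff and mm10 appear in the submitters' processing notes, without roles. RNA polymerase II, IgG and input libraries were not analysed here.

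On log2(FPKM + 1), limma 3.58.1 (R 4.3.3, trend) gave 2-sided p-values. These were adjusted by Benjamini-Hochberg over 12035 genes, those averaging 1 FPKM or more, with calls below 0.05. A gene rose or fell where it passed that threshold. Peaks were merged at 1 bp of overlap in Python 3.11.15 with pandas 2.3.3. Positions came from RefSeq. Alternatives were the normalization, pseudocount, filter, trend, peak threshold, flank, replicate block and leaving out each library. The text names every member, Tdg, the tested neighbours with the 3 highest and 3 lowest differences, the 3 nearest profiles of each member, up to 4 called genes with the largest difference in each list, and the CTCF regions of the members. The members and lists were chosen with earlier results of these data known. A gene and a CTCF region near the cluster are not reported here.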

Additional observations from a re-analysis of the deposited data

How the results depend on the processing

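Of all tested genes, between 4819 and 5313 were called when each library was left out in turn, against 6496 in full, and 6696 with a replicate block. Of the 6 tested neighbours 5 were called in each of these fits, 6 by limma without trend, which added Foxj2, and 6 of 21 with no filter on FPKM. Same-numbered libraries did not deviate together (correlation -0.0157), so the numbers are not taken to pair them. Nanog differed by 0.39 and Slc2a3 by 0.32 under quantile normalization, and Dppa3 by 5.02 with a pseudocount of 0.1. Against the median of chromosome 6 from 100 to 130 Mb, an alternative added after seeing the data, Nanog was at -0.10, Gdf3 at -0.26, Apobec1 at -0.08, Slc2a3 at -0.19 and Dppa3 at 4.05, by construction of the subtraction.

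TDG KO-only regions of the window numbered 9 in full and 5 with equal numbers of best-scored peaks from each list. They numbered 10 to 18 when each list was left out. With only the peaks above the median score of their list, 4 regions counted as TDG KO-only. None of the 9 was among them, as their highest percentile by score in a TDG KO list was 46.6. The 4 also held peaks in 1 or both WT lists, which fell below the median score. An example is the region over Gdf3, at percentiles of 40 and 41.2 in the WT lists and 90.8 and 82.8 in the TDG KO lists. Shared regions numbered 16 in full, 8 above the median score, 10 with no flank and 16 to 18 with a list left out; these settings use fewer peaks or fewer lists. FPKM without counts limits the precision of low genes such as Dppa3 in WT.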

Other observations

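Among chromosomes, chromosome 11 had the highest median log2 difference between TDG KO and WT (0.37 over 1028 tested genes), followed by chromosome 6 (0.04 over 562), and the others lay between -0.14 and 0.00.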
